A study of Mus musculus with 4 samples.

Results

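The microRNAs (miRNAs) mmu-miR-146a-5p, mmu-miR-146b-5p and mmu-miR-155-5p, written without the species prefix from here on, were measured on 4 one-colour miRNA arrays of mouse osteoblastic cells. They were picked by name, as 3 of 1900 miRNA probes of which 1898 were used, and each had 1 spot on each array. Earlier values of these arrays were known when they were picked, chiefly the low signal of miR-146b-5p and the signal of miR-155-5p with Wnt3a. Their levels are therefore a description and carry no test.

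The RNA was from MC3T3-E1, an osteoblast-like cell line cloned from mouse skull bone, kept in proliferation medium. Every culture carried a recombinant adenovirus, which expressed GFP in the control and Wnt4, Wnt3a or Wnt5a in the other groups, so that the control shares the vector and lacks the ligand. Wnt3a typically signals through beta-catenin and Wnt5a mostly without it, while Wnt4 can do either. There was 1 array per group and no replicate of any kind, so each difference is between 2 arrays and has no replicate check. The promoter in the vector, the dose of virus and the time of harvest are not given in the sources used here, and the probes are for miRNAs, so the Wnt transgenes themselves were not measured.

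NF-kappaB is a transcription factor that carries signals from Toll-like receptors, the interleukin-1 receptor and the tumour necrosis factor receptor to genes of inflammation. miR-146a and miR-146b are best known as brakes on it: they repress the adaptors TRAF6 and IRAK1, and miR-146a is itself a target of NF-kappaB, which closes a negative feedback loop. miR-155 is cut from the noncoding transcript of its host gene in activated macrophages and lymphocytes, and it represses SHIP1 and SOCS1, which both dampen immune signalling. In bone, NF-kappaB is known above all for the formation of osteoclasts, and in osteoblasts it has been described as a restraint on matrix formation.

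The mature sequences show how close the miR-146 miRNAs are to each other. The sequences of the array probes themselves are not given in the sources used here. They are given 5′ to 3′ from RefSeq with the seed, bases 2 to 8, in capitals.

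miR-146a-5p: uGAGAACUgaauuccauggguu

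miR-146b-5p: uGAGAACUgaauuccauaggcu

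miR-155-5p: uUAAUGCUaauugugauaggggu

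The miR-146 pair shared the seed and 20 of 22 bases, and differed by the substitutions G18A and U21C, written with the base of miR-146a-5p first and positions counted from 1 at the 5′ end. No other of the 1611 array miRNAs searched carried that seed. miR-155-5p, of 23 bases, shared its seed with none of them, and its nearest relative by whole sequence, miR-26b-5p, was 8 edits away. In assembly GRCm38.p6 miR-146a-5p lies at chr11:43374435-43374456 on the minus strand, miR-146b-5p at chr19:46342790-46342811 on the plus strand and miR-155-5p at chr16:84714143-84714165 on the plus strand. Mir155 lies within the noncoding host gene Mir155hg, and Mir146b within Gm36493, which is also annotated as a long noncoding RNA. Mir146, the gene of miR-146a, overlaps no other gene of the annotation, and its nearest neighbours are Atp10b and Gm5782.

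The hairpins are shown with both mature arms in capitals, since the arms other than those above were also on the array.

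Mir146: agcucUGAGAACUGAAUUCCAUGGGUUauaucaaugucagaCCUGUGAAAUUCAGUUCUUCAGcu

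Mir146b: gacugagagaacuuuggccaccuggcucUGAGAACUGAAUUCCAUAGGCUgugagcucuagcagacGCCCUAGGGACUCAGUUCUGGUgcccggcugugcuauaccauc

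Mir155: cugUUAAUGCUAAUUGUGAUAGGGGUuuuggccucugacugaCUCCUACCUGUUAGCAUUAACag

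Detection required a spot median, the raw intensity of the spot, beyond the mean plus 2 SD of the same array's 896 blank spots, taken over their middle 95%. The Wnt3a array stood apart on this measure, with 1063 of 1898 miRNAs detected (56.0%) against 616 (32.5%) with GFP, 547 (28.8%) with Wnt4 and 502 (26.4%) with Wnt5a. Its blanks were dim and even, with a mean of 72.8 units and an SD of 4.47, while the mean of its 32 negative control spots was 84.0. Those spots were of different probes, with means on the Wnt3a array of 93.1, 71.5 and 78.5 units. The brightest probe held 16 of the 32 spots, and the limit from negative controls pools them all. On the other arrays the blank and negative control means were closer, at 90.8 and 95.8 units for GFP, 74.4 and 76.2 for Wnt4, and 96.9 and 94.2 for Wnt5a. Against the mean plus 2 SD of the negative control spots, 493 miRNAs (26.0%) were detected on the Wnt3a array, 468 (24.7%) on GFP, 453 (23.9%) on Wnt4 and 445 (23.4%) on Wnt5a. Both limits are therefore given for the miRNAs below, and the part of this uneven background in their values was not tested.

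miR-146b-5p was the only one of the 3 detected on all 4 arrays. Its spot median was 299 units with GFP, 232 with Wnt4, 86.3 with Wnt3a and 303 with Wnt5a. The blank limits in the same order were 104, 86.9, 81.7 and 111 units, so miR-146b-5p stood far above the limit on 3 arrays and only just above it with Wnt3a. In units of the blank SD it lay 31.2 above the blank mean with GFP, 25.3 with Wnt4, 29.1 with Wnt5a and 3.03 with Wnt3a. None of the 896 blanks and none of the 32 negative control spots was brighter on the GFP, Wnt4 and Wnt5a arrays. On the Wnt3a array 11 blanks and 14 negative control spots were brighter, and the limit from negative controls, 107 units, was not reached. Within its own block of the slide, however, none of 28 blanks was brighter than miR-146b-5p on any array, and the brightest of them on the Wnt3a array read 81.3 units.

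The normalized log2 level of miR-146b-5p was 8.08 with GFP, 8.02 with Wnt4, 6.21 with Wnt3a and 8.08 with Wnt5a. It was thus lower with Wnt3a than with GFP by a log2 difference of -1.87 (spot-noise SE 0.15), which is 3.65-fold. The SE comes from replicate spots of 24 control probes and covers variation between spots of an array, neither hybridisations nor cultures. Against Wnt4 and Wnt5a the log2 differences of the Wnt3a array were -1.81 (SE 0.14) and -1.87 (SE 0.17). The other arrays did not differ beyond spot noise, with -0.06 (SE 0.15) for Wnt4 minus GFP, 0.06 (SE 0.17) for Wnt5a minus Wnt4 and 0.00 (SE 0.17) for Wnt5a minus GFP. In this last pair the probe had the same rank, 186 of 1898, on both arrays, and quantile normalization gives equal ranks equal levels. The comparisons with GFP share the GFP array and those with Wnt3a share the Wnt3a array, so they do not repeat each other.

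Among miRNAs detected on both arrays, 6 of 611 were at least 2-fold lower with Wnt3a than with GFP (0.982%), 7 of 544 lower than with Wnt4 (1.29%) and 6 of 501 lower than with Wnt5a (1.20%). miR-146b-5p was 1 of them in each pair and had the third lowest difference in each. Next below it against GFP came miR-140-5p at -2.18 and next above miR-503-5p at -1.24, so a wide gap separated it from the miRNAs above. Only 1 of 517 miRNAs was at least 2-fold lower with Wnt4 than with GFP (0.193%) and 0 of 493 with Wnt5a, and miR-146b-5p was not among them. These places were known when miR-146b-5p was picked and support nothing further.

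**Figure D1:**
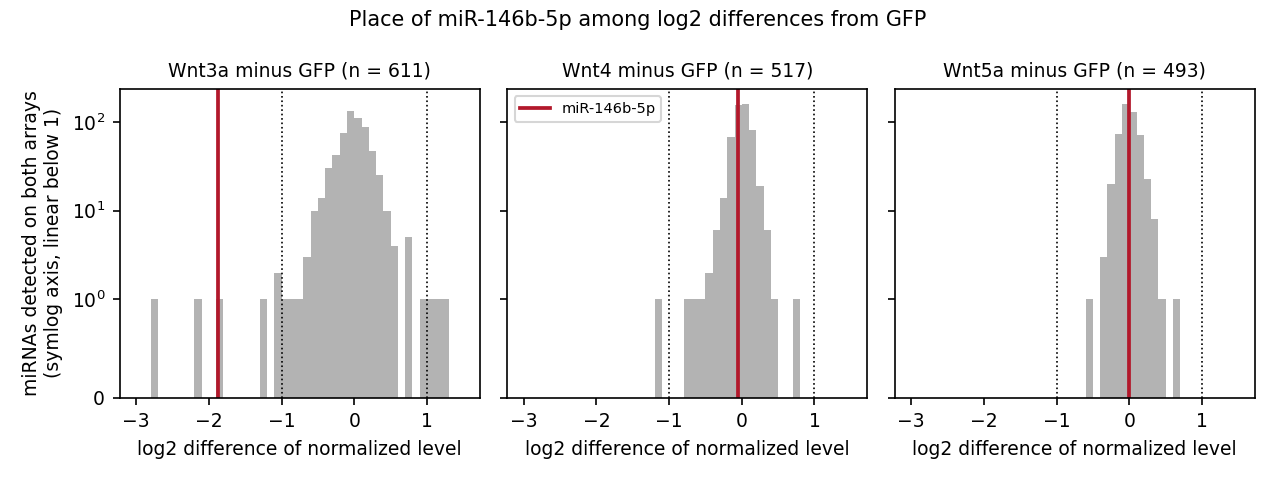
Histograms of the log2 difference from GFP over all miRNAs detected on both arrays, for Wnt3a, Wnt4 and Wnt5a, with 1 array per group. The red line marks miR-146b-5p, at -1.87 with Wnt3a and at -0.06 and 0.00 with Wnt4 and Wnt5a, and dotted lines mark 2-fold either way. The count axis is linear below 1 and logarithmic above.

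The size of the difference varied with what was taken off as background, and the Wnt3a value lay near that background. By the limit from negative controls, which miR-146b-5p did not reach with Wnt3a, only a bound can be given: it was at least 2.94-fold lower there than with GFP, at least 2.83-fold lower than with Wnt4 and at least 2.94-fold lower than with Wnt5a. With the background column in the correction the difference from GFP was -0.31 on the log2 scale and that from Wnt4 was 0.014, so the 2-fold difference was lost. The ratio of raw spot medians was 3.47-fold in favour of GFP. The settings of the scanner gains are not given in the sources used here, so raw units on different arrays are comparable only if these were alike. With the blank mean subtracted the spot held 209 units on the GFP array, 157 on Wnt4, 13.5 on Wnt3a and 206 on Wnt5a, and the ratio of GFP to Wnt3a was 15.4-fold, a figure that rests on those 13.5 units. The corresponding ratios to Wnt3a were 11.6-fold for Wnt4 and 15.2-fold for Wnt5a. In the authors' deposited table miR-146b-5p read 84.4 with GFP, 62.8 with Wnt4, 12.6 with Wnt3a and 58.7 with Wnt5a. That is 6.70-fold lower with Wnt3a than with GFP, in the authors' deposited table, where the median ratio of Wnt3a to GFP over all 632 miRNAs listed on both was 2.77. With each column of the authors' deposited table divided by its median over the miRNAs listed on all 4 arrays, the difference became 17.6-fold.

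**Figure D2:**
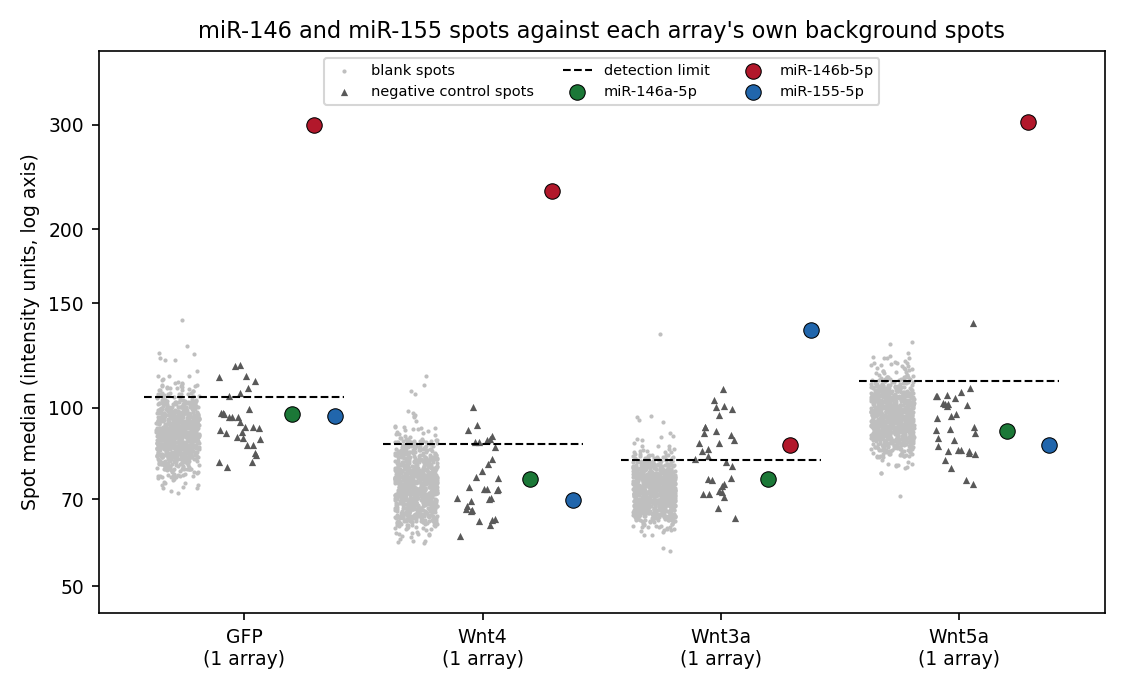
Raw spot medians on a logarithmic axis for miR-146a-5p, miR-146b-5p and miR-155-5p on each of the 4 arrays, beside that array's 896 blank spots and 32 negative control spots. Each coloured point is 1 spot, and the dashed line is the limit from blanks. miR-146b-5p lies at 299 and 303 units with GFP and Wnt5a, at 232 with Wnt4 and among the negative controls with Wnt3a. miR-155-5p passes the limit from blanks with Wnt3a alone, where it lies just above the brightest blank.

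miR-146a-5p, the other brake of the family, was not detected on any array by either limit. Its spot medians were 97.5 units with GFP, 75.7 with Wnt4, 75.8 with Wnt3a and 91.3 with Wnt5a, all inside the blank spots of the same array. Of 896 blanks, 166 were brighter with GFP, 368 with Wnt4, 250 with Wnt3a and 666 with Wnt5a. No fold is given, since both sides of every pair were below the limit, and a low level of the miRNA cannot be told from none at this signal. On the arrays where the miR-146b-5p spot read between 232 and 303 units, the spot of its near-identical relative stayed at the blanks, so the signal at the miR-146b-5p probe was not shared by the miR-146a-5p probe.

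miR-155-5p, which in immune cells accompanies NF-kappaB activation, was detected on the Wnt3a array alone. Its spot medians were 96.8 units with GFP, 69.9 with Wnt4, 135 with Wnt3a and 86.6 with Wnt5a. On the Wnt3a array it lay 13.9 blank SDs above the blank mean, and it also passed the limit of 107 units from negative controls. It was brighter than all 32 negative control spots, all 28 blanks of its block and all 896 blanks. The brightest of these 896 read 133 units, just under miR-155-5p at 135, and the blank SD leaves out such extreme blanks. Elsewhere miR-155-5p lay inside the blanks, with 187 of them brighter on GFP, 645 on Wnt4 and 821 on Wnt5a. Those 3 values are at background and have no order among themselves.

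On the log2 scale the normalized level of miR-155-5p was 6.88 with Wnt3a, 6.21 with GFP, 6.07 with Wnt5a and 6.03 with Wnt4. Since only 1 side of each pair was detected, the comparison is a bound, taken from the normalized Wnt3a level against the higher of the other array's detection limit and the dim spot. By it the Wnt3a level of miR-155-5p was at least 1.44-fold higher than the GFP level, at least 1.36-fold higher than the Wnt4 level and at least 1.29-fold higher than the Wnt5a level. With the limit from negative controls these bounds were 1.23-fold, 1.21-fold and 1.19-fold. The offset of 50 units used in the correction shrinks folds of dim spots. On blank-subtracted signals, 62.2 units with Wnt3a, the same bounds were 4.6-fold, 5.0-fold and 4.4-fold. In the authors' deposited table miR-155-5p is listed on the Wnt3a array only, at 57.9. Of the miRNAs used here, that table lists 1112 on Wnt3a, 638 on GFP, 568 on Wnt4 and 515 on Wnt5a. It derives from the same spots.

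Detection with Wnt3a and not with GFP was common on these arrays, at 452 of 1898 miRNAs (23.8%), as it was against Wnt4 at 519 (27.3%) and against Wnt5a at 562 (29.6%). Detection on the Wnt3a array alone covered 420 miRNAs (22.1%), of which miR-155-5p was the brightest, and the next, miR-135a-2-3p, read 109 units. With the limit from negative controls 34 miRNAs (1.79%) were detected on Wnt3a alone, and miR-155-5p was second to miR-7686-5p at 144 units. With that same limit 9 miRNAs (0.474%) were detected on every array but Wnt3a. miR-146b-5p was the brightest of these on the GFP array, followed by miR-204-5p at 161 units.

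The spots next to the blank limit show how narrow the call is there. On the Wnt3a array let-7d-3p was just inside at 81.8 units and miR-200b-3p just outside at 81.7. On GFP these places belonged to miR-6923-3p at 104.3 and miR-698-5p at 104.2, on Wnt4 to miR-3081-5p at 87.0 and miR-7002-5p at 86.9, and on Wnt5a to miR-188-5p and miR-210-5p at 111.1 and 110.9.

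The partner arms miR-146a-3p, miR-146b-3p and miR-155-3p gave no detected signal in any of 12 spots. They read between 81.1 and 93.0 units on GFP, 63.3 and 79.3 on Wnt4, 71.0 and 77.5 on Wnt3a, and 73.5 and 85.9 on Wnt5a. Their place relative to the blank mean ran from -3.31 to 1.04 blank SDs. On the Wnt3a array miR-155-3p read 74.4 units, where miR-155-5p was detected, and on the GFP array miR-146b-3p read 84.0 units, where miR-146b-5p was bright. The 5p arms of the hairpins above were detected in 5 of 12 spots, of which miR-146b-5p with Wnt3a did not reach the limit from negative controls. Over all miRNAs the share detected was 26.4% to 56.0% by array. The count of the 5p arms lay within these shares, and that of the partner arms, 0 of 12, lay below them. Whether either count differs from the share of all miRNAs was not tested.

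The miRNAs closest in pattern were sought by the Euclidean distance between normalized log2 levels over the 4 arrays, each miRNA centred on its own mean, among miRNAs detected on at least 1 array. It is a description over 4 arrays and gives most weight to the Wnt3a array. Of 1070 candidates the 5 nearest to miR-146b-5p were miR-140-5p (distance 0.32), miR-503-5p (0.55), miR-322-5p (0.59), miR-140-3p (0.65) and miR-708-5p (0.74). miR-140 is the cartilage-enriched miRNA of the Wwp2 locus, and miR-322 and miR-503 come from a shared cluster. All 5 were lowest with Wnt3a. Some were less even elsewhere, with log2 differences from GFP of -0.26 with Wnt4 and -0.35 with Wnt5a for miR-140-3p, and of 0.21 with Wnt5a for miR-322-5p. miR-708-5p was about as even as miR-146b-5p, at 0.05 with both Wnt4 and Wnt5a. miR-140-5p read 2379 units with GFP, 2096 with Wnt4, 535 with Wnt3a and 2142 with Wnt5a. miR-503-5p read 285, 248, 130 and 281 units in the same order.

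For miR-155-5p the nearest were miR-6769b-5p (distance 0.13), miR-31-5p (0.19), miR-210-3p (0.23), miR-7047-5p (0.24) and miR-6913-5p (0.24). miR-210-3p is the classical miRNA of hypoxia. The distances rest mainly on the Wnt3a level, since the other 3 levels of miR-155-5p were at background, and their order means little. Unlike miR-155-5p, these 5 were detected on all 4 arrays, so their differences are measured on both sides. miR-31-5p, for example, read 2017 units with GFP, 1670 with Wnt4, 3071 with Wnt3a and 1917 with Wnt5a, and its log2 difference of Wnt3a from GFP was 0.78. miR-146a-5p lay at background, so its pattern has no meaning of its own. By the same rule its neighbours were miR-3084-3p, let-7c-1-3p, let-7c-5p, miR-5627-3p and miR-1899, at distances of 0.01 to 0.04.

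Other miRNAs reported as raised by NF-kappaB or inflammatory signalling were then listed, every arm counted. Of 26 probes, 14 were detected on GFP, 14 on Wnt4, 20 on Wnt3a and 13 on Wnt5a, beside 32.5%, 28.8%, 56.0% and 26.4% of all miRNAs, so the higher count with Wnt3a is also that of the whole array. For Wnt3a against GFP, 14 were detected on both arrays, 4 with a difference above 0 and 10 below. Their median log2 difference was -0.20, beside 0.00 and 50.1% below 0 over all 611 miRNAs. With Wnt4 and Wnt5a the medians over 13 were 0.04 and 0.04, beside 0.01 and 0.00 over all miRNAs. Scalings that shift all miRNAs shift these medians with them: in the authors' deposited table the Wnt3a median was 1.05 where that of all miRNAs was 1.46.

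miR-21a-5p, widely raised in inflammation and cancer, had the largest difference of that list. It read 6669 units with GFP, 6673 with Wnt4, 12510 with Wnt3a and 7619 with Wnt5a, and was highest with Wnt3a. Its normalized log2 difference from GFP was 1.07 with Wnt3a, 0.71 with Wnt4, the highest of all 517 miRNAs in that pair, and 0.35 with Wnt5a. The raw signals with Wnt4 and GFP were nearly equal, so the 0.71 and its place came with the quantile normalization. With Wnt3a miR-21a-5p was the only one of the list at least 2-fold different, where 3 of 611 miRNAs were at least 2-fold higher (0.491%). Its raw signals with Wnt3a and GFP were less than 2-fold apart, so passing 2-fold came with the processing. miR-125b-5p, which is repressed in some inflammatory settings and raised in others, read 14365 units with GFP, 12399 with Wnt4, 11306 with Wnt3a and 12726 with Wnt5a, with normalized log2 differences of -0.48 for Wnt3a, 0.35 for Wnt4 and 0.00 for Wnt5a. Its raw signal was lower with Wnt4 than with GFP, so the positive sign of 0.35 came with the quantile normalization. miR-23b-3p and miR-24-3p, which share a cluster, were at 0.25 and 0.10 for Wnt3a. In raw units miR-23b-3p was lower with Wnt3a, at 4169, than with GFP, at 4360, so its sign also came with the normalization. miR-132-3p, a miRNA of the CREB pathway that has also been tied to innate immunity, was detected on Wnt3a alone at 90.3 units, under the limit from negative controls. No arm of miR-147, which is induced through Toll-like receptors in mouse macrophages, was detected on any array.

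A second list held miRNAs reported to repress a component or inhibitor of the NF-kappaB pathway. Of its 20 probes, 10 were detected on GFP, 9 on Wnt4, 13 on Wnt3a and 9 on Wnt5a, to be read beside the same shares of all miRNAs. For Wnt3a against GFP 4 of 10 were above 0 and 5 below, with a median of -0.02, and no member was at least 2-fold different. With Wnt4 and Wnt5a the medians over 9 were 0.07 and 0.00. miR-31-5p, already named, had its largest difference. The probe shared by miR-199a-3p and miR-199b-3p read 5060 units with GFP, 4369 with Wnt4, 4825 with Wnt3a and 4604 with Wnt5a, at 0.34 for Wnt3a. Its raw signal was lower with Wnt3a than with GFP, so this sign came with the quantile normalization. miR-16-5p was at 0.00 and miR-199a-5p at -0.03 in the same comparison. Both lists were drawn up with earlier results of these arrays known, and their place among all miRNAs was not tested.

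**Figure D3:**
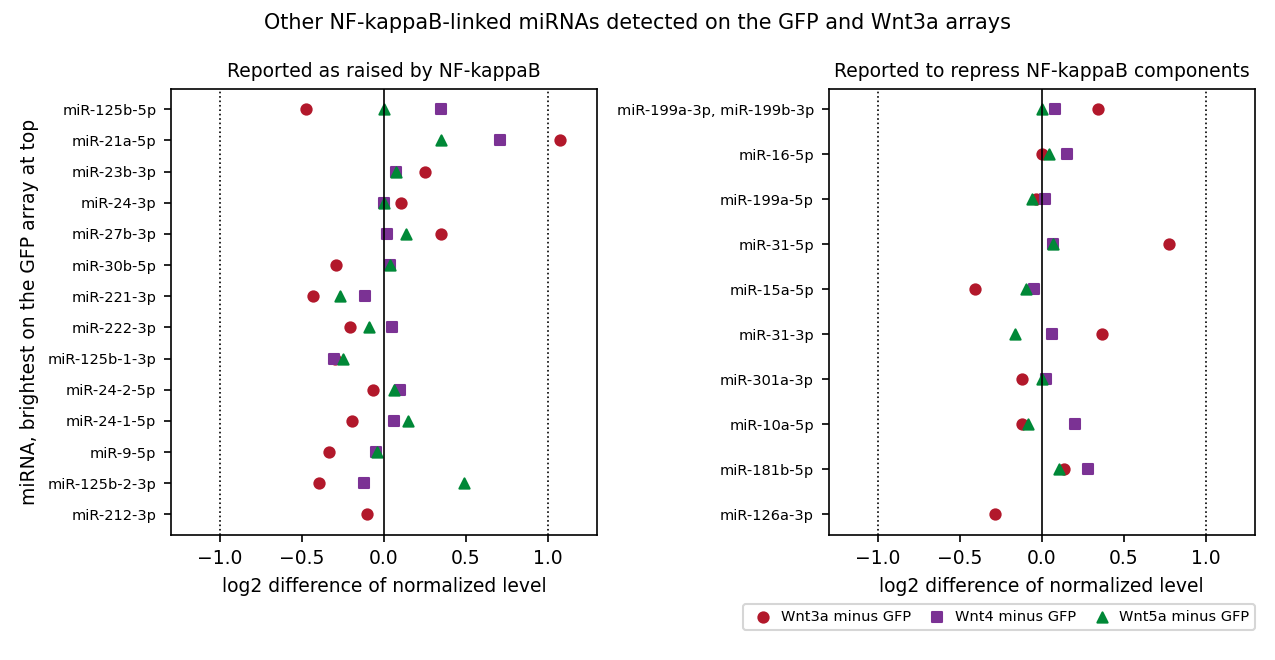
Log2 differences from GFP with Wnt3a, Wnt4 and Wnt5a for the miRNAs of both NF-kappaB lists detected on the GFP and Wnt3a arrays, ordered by signal on the GFP array. Points are differences between 2 arrays, a point is left out where the miRNA was not detected with that Wnt, and dotted lines mark 2-fold. On these normalized levels miR-21a-5p alone passes 2-fold, with Wnt3a, and most members lie between the dotted lines.

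Markers of other cell types were read beside these values because miR-155-5p and miR-146a-5p are abundant in immune cells. Of 15 probes for miRNAs of blood and immune cells, 5 were detected on GFP, 3 on Wnt4, 6 on Wnt3a and 3 on Wnt5a, where 32.5%, 28.8%, 56.0% and 26.4% of all miRNAs were. Their summed raw signal was 1729, 1367, 1561 and 1704 units. miR-142a-3p, the miRNA found in all blood lineages, miR-150-5p and both arms of miR-144 were at background on all 4 arrays. miR-142a-5p was detected on GFP alone at 107 units, under the limit from negative controls. miR-223-3p, the miRNA of granulocytes, was detected on Wnt3a alone at 83.6 units, under the limit from negative controls. The rest of the list was not all at background. miR-342-3p read 152 units with GFP, 136 with Wnt4, 154 with Wnt3a and 160 with Wnt5a, and miR-451a, the miRNA of red blood cells, read 129, 108, 115 and 119, both detected on all 4 arrays. On the Wnt5a array miR-451a was just under the limit from negative controls. The part of these miRNAs in the values of miR-155-5p and miR-146b-5p was not tested. The brightest of the list, miR-486a-3p, read 358 units with GFP and 364 with Wnt3a, a log2 difference of -0.04.

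Most probes for the mesenchymal miRNAs that an osteoblastic line should hold were detected on every array. Of 9 probes for miR-143, miR-145a, miR-199a, miR-199b and miR-214, 8 were detected on GFP, 9 on Wnt4, 9 on Wnt3a and 7 on Wnt5a. Of all miRNAs, 32.5%, 28.8%, 56.0% and 26.4% were detected in the same order. miR-145a-3p was not detected on GFP or Wnt5a, and miR-143-5p was not detected on Wnt5a. The median of the 9 was 1275, 1121, 1282 and 1173 units in that order. Both probes for miR-122 of liver were at background throughout. The 2 probes for miR-124 of neurons had 1 detection, on Wnt3a. The 7 probes of muscle had 1 on GFP, 0 on Wnt4, 2 on Wnt3a and 1 on Wnt5a, and the 8 of epithelium 1, 0, 5 and 0. These counts too are to be read beside the same shares of all miRNAs. The brightest spot of these lists, miR-208a-5p on the Wnt5a array, read 117 units, so the extra detections with Wnt3a were all of dim spots.

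**Figure D4:**
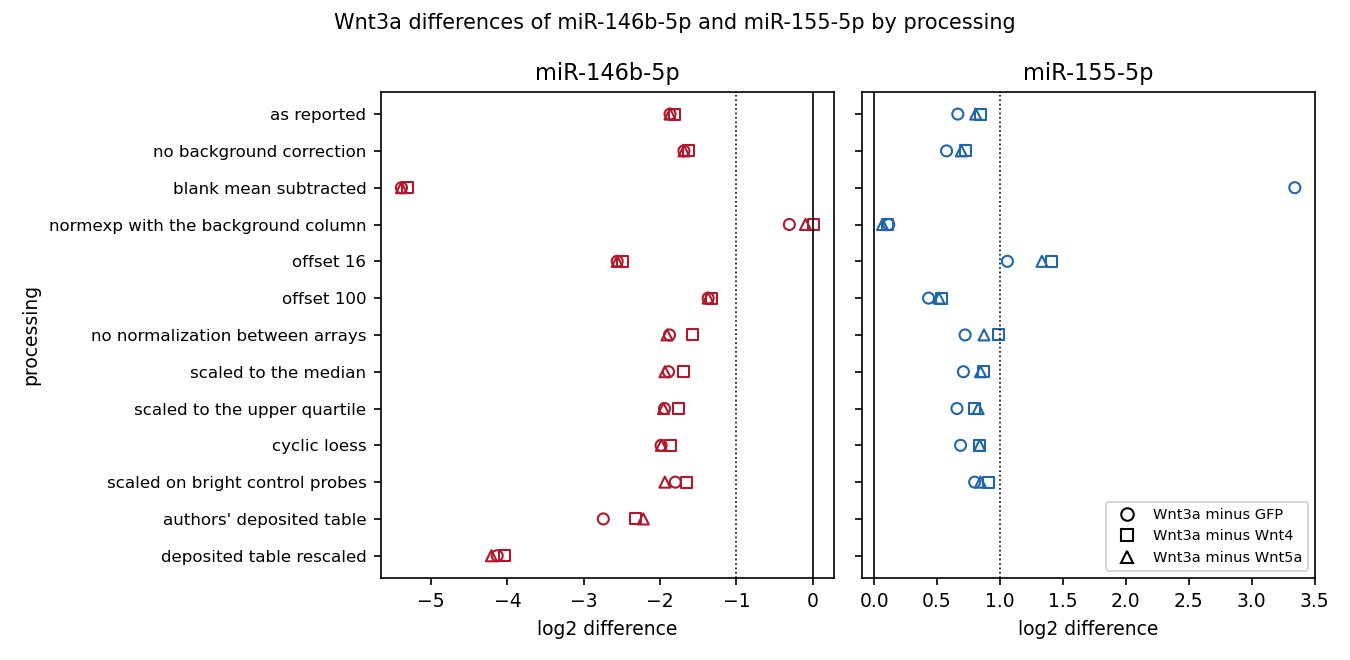
Log2 differences of the Wnt3a array from GFP, Wnt4 and Wnt5a for miR-146b-5p and miR-155-5p under the reported processing and each alternative. Values for miR-155-5p compare a detected spot with spots at background, so they are no measured folds, and a missing point means that an alternative gave no value. miR-146b-5p lies beyond the dotted 2-fold line in every setting but the one that uses the background column, and miR-155-5p lies above 0 in each.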

How the data were processed

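Total RNA was labelled with Hy5 by a kit for LNA miRNA arrays, per the labels' protocols, and each array was scanned at 635 nm with 3 gains, per the file headers. Per the file headers, the scanner output gives the median intensity of all 3200 spots of an array, as read. The authors' deposited table holds a second intensity, which was found, by setting it against the scanner values, to be the spot median less the blank mean, multiplied by a constant of that array, within 0.0509 units. Its median is 25 on every array, so its columns are on different scales.

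The background column followed the spot's own signal (Pearson's r of log2 values 0.942 to 0.985 across spots), so only spot medians entered normexp (all spots, offset 50). The 1898 miRNA probes were then quantile-normalized with limma 3.58.1 in R 4.3.3. The 2 probes left out carried a bad-spot mark with GFP. Later steps used Python 3.11.15, numpy 2.4.6, scipy 1.17.1, pandas 2.3.3 and matplotlib 3.10.9, and the steps were tested on simulated data. With 1 array per group no test is possible and no p-value is given, and the number of arrays limits the precision.

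Sequences come from RefSeq (GRCm38.p6), where 1612 of 1898 probe names had a mature sequence. The miRNAs and lists were chosen with earlier results of these data known. The rule for names took the 3 miRNAs and their partner arms, up to 5 nearest in pattern, the neighbours in difference and at the limit, up to 4 brightest and the largest difference of each list, and sharers of a seed. miR-142a, miR-144, miR-150, miR-223, miR-132-3p, miR-147, miR-7686-5p, miR-204-5p and miR-135a-2-3p were named after their values were seen. Background correction, offset, normalization, detection limit, the filter on dim probes and the source of the values were varied.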

Additional observations from a re-analysis of the deposited data

How the results depend on the processing

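Of 12 alternatives for miR-146b-5p with Wnt3a against GFP, 11 kept it at least 2-fold lower. The log2 difference was -1.69 with no background correction, -5.39 with the blank mean subtracted, -2.56 with an offset of 16 and -1.37 with an offset of 100. It was -2.74 in the authors' deposited table and -4.13 with that table rescaled. In this section the blank mean was subtracted before quantile normalization, whereas the 15.4-fold ratio given above had no normalization. With the background column the log2 difference was -0.31, and there the Wnt3a minus Wnt4 difference turned to 0.014. The cause was not tested. On the Wnt3a array 1 in place of 2 of the miRNAs was detected with the limit at 5 SD and with that from negative controls. In each of the 3 comparisons of Wnt3a, 0 in place of 1 was at least 2-fold different with either of those limits or with the background column. Over all miRNAs, the 9 that were at least 2-fold different from GFP with Wnt3a became 54 with the blank mean subtracted, 37 with the background column, 531 in the authors' deposited table and 36 with it rescaled. The 1 with Wnt4 became 5, 80, 16 and 9, and the 0 with Wnt5a became 6, 39, 63 and 9, and 1 over all probes. For miR-155-5p, Wnt3a minus GFP ran from 0.12 (background column) to 3.34 (blank mean subtracted) over the 10 alternatives that gave a value, and was 0.43 with an offset of 100. These differences set a detected spot against one at background. The smallest 2 lie below the bound of 1.44-fold, which was computed for the reported processing only. The limit from blanks of the same block, the limits applied to the 2-fold counts, the bounds from negative controls and the rescaled table were chosen after seeing the data. Signal over background limits miR-146a-5p on all arrays and miR-155-5p on all but Wnt3a. No paired analysis was possible because there was 1 array per group and the labels carry no replicate numbers.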
